A study of Mus musculus with 16 samples.

Results

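Hearts of NM1 knockout (KO) mice were compared with hearts of wild-type (WT) mice on Affymetrix mouse expression arrays. The comparison rests on the 6 of 16 arrays of the series whose titles name heart, 1 array per heart: KO mice 1602, 1603 and 1586, and WT mice 1592, 1624 and 1593. The other arrays measured lungs of the same 6 mice and 4 samples of skin fibroblasts, and they enter here through the shared estimate of the spread and, for lungs, as a comparison. The labels give genotype, tissue and mouse number. They do not state the deleted part of the gene, the strain, the age, the sex or the chambers taken. The Y-linked gene Eif2s3y lay between 8.02 and 8.48 log2 in all 6 hearts. Each mouse number was read as 1 animal, and p-values measure the spread between these samples.

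NM1, nuclear myosin 1, is an isoform of the actin-based motor protein made from the gene Myo1c and differs from the main isoform by a short extension at its amino end. In the nucleus it binds actin, takes part in the transcription of ribosomal RNA genes by RNA polymerase I and belongs to the B-WICH chromatin remodelling complex. The isoforms outside the nucleus link membranes to the actin cytoskeleton. In the heart, ventricular and atrial muscle cells carry different myosin light chains, and fibroblasts, endothelium, endocardium and the mesothelial lining of the epicardium make up most of the other cells.

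All values below are the deposited log2 signals, so that a difference of 1 is a 2-fold change. Values of single hearts are given in the order 1602, 1603 and 1586 for KO and 1592, 1624 and 1593 for WT. Of 45037 probe sets, 22098 had a mean over the 6 hearts above the median of the table (3.79) and were kept. Differences are KO minus WT from limma, and a probe set with a Benjamini-Hochberg adjusted p under 0.05 was called. For counts over gene lists each gene was represented by its kept probe set with the highest mean, which gave 10224 genes.

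The KO heart of mouse 1602 stood apart from the other 5 hearts and weighs on most differences below. Its upper quartile was 5.63 log2, against 6.21 and 6.17 in the other KO hearts and 6.23, 6.26 and 6.31 in WT hearts. It held the lowest of the 6 values at 63.7% of the kept probe sets, against 4.91% to 9.64% for each other heart. The deficit depended on the signal level. Where the WT mean lay between 5 and 6 log2, the median difference of this heart from the WT mean was -0.77, between 8 and 9 log2 it was -0.26, and between 10 and 11 log2 it was -0.01. KO hearts 1603 and 1586 stayed within 0.06 of the WT mean, in medians, in every such range of levels. The median difference over all kept probe sets was -0.16, with 15947 of 22098 lower in KO, and it was -0.02 without KO heart 1602. The genes' median was -0.15.

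The same heart had signals that no other array had. On it 201 probe sets lay more than 2 log2 above each of the other 15 arrays of the series, against 0 to 2 on each other heart, and 41 of the 201 were kept. The array's nonspecific control probes, which match no mouse transcript, were brighter with more G and C bases on the other 5 hearts. Probes with 19 to 24 such bases of 25 exceeded those with 5 to 10 by 0.78 and 0.95 log2 in KO hearts 1603 and 1586 and by 1.02, 0.88 and 0.75 in WT hearts, but by -0.03 in KO heart 1602. The 3 probe sets for 18S ribosomal RNA (means of 12.94, 12.94 and 12.98 in KO and 12.90, 12.99 and 12.96 in WT hearts) did not set this heart apart. Of 24 probe sets for the poly-A control transcripts added to each sample, 13 had all KO hearts above all WT hearts, as had 10 of the 18 for the hybridisation controls. The part of these signals in the differences below was not tested beyond leaving the array out.

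**Figure D1:**
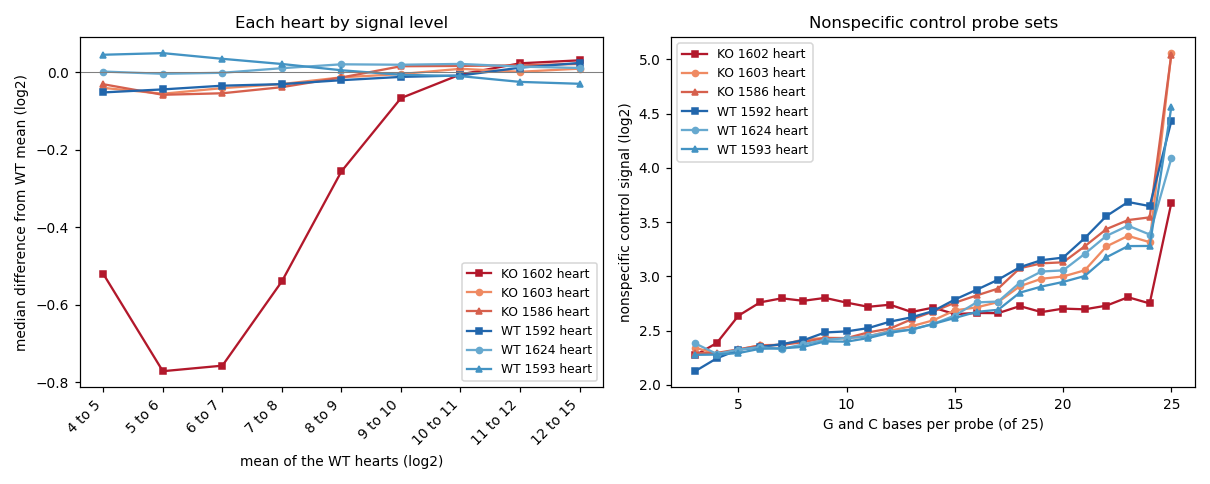
Left, the median difference of each heart from the mean of the WT hearts (log2), by ranges of the WT mean (log2), and right, the mean signal (log2) of nonspecific control probe sets by the number of G and C bases per probe of 25, with 1 line per heart. KO heart 1602 lies 0.52 to 0.77 below the WT mean at levels from 4 to 7 log2 and near 0 above 10 log2, and its control probes run nearly flat with G and C content.

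The targeted gene was lower in KO hearts. Averaged over its 4 probe sets, Myo1c had 6.00, 5.99 and 5.92 log2 in KO hearts, against 6.73, 6.83 and 6.60 in WT hearts, and the groups did not overlap. The difference of -0.75, or 1.68-fold, gave p = 0.1 in an exact permutation test (two-sided), the smallest value that 20 arrangements of 3 against 3 hearts allow. The brightest Myo1c probe set, 1419649_PM_s_at, lay at 8.29, 8.53 and 8.45 in KO and 9.31, 9.29 and 9.18 in WT hearts (adjusted p = 0.0866, limma), so transcript remained measurable in KO hearts. Whether they tell NM1 from the other isoforms was not tested. The exception was 1449550_PM_at, with 5.72, 5.23 and 4.80 in KO and 5.39, 5.49 and 5.39 in WT hearts, where the groups overlapped.

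Among the other class I myosins, single-headed motors that bind membranes, Myo1d had 4.52, 4.94 and 4.76 log2 in KO and 5.43, 5.69 and 5.69 in WT hearts (difference -0.86, adjusted p = 0.150). Myo1e differed by -0.43 (adjusted p = 0.374) and Myo1f by 0.39 (adjusted p = 0.251). None of these passed the test, although KO and WT hearts did not overlap for any of the 3. Over all genes 14.5% were lower and 4.61% higher with no overlap. Without KO heart 1602, 3 of 4 kept class I myosin genes, Myo1c among these 3, were lower with no overlap (15.8% of genes). Of the 4, 0 were higher with no overlap (12.9% of genes). The Myo1f probe set fell below the filter without that heart and was not counted, so the 0 does not describe it.

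Across all genes, 28 of 22098 probe sets passed (0.127%). In KO hearts 4 were higher (0.0181%) and 24 lower (0.109%). The split depended on the scaling: 11 higher and 14 lower were called after quantile normalization, and 12 higher and 12 lower after centring each array on its median. The 28 cover 20 named genes, 3 higher and 17 lower, and 8 probe sets with no gene name in the annotation used. KO and WT hearts did not overlap for any of the 28. Among all kept probe sets, 3.91% were higher and 13.7% lower with no overlap. KO heart 1603, which resembled WT hearts in its atrial transcripts (below), thus lay beyond all 3 WT hearts in each of the 28. That follows from the lack of overlap and is no separate result (24.3% of kept probe sets had this heart above and 28.8% below them). The 28 were chosen by this same difference, so both counts are a description. The gap between the nearest KO and WT hearts ran from 0.28 to 4.71 log2. An unadjusted p under 0.05 was met by 3746 probe sets (17.0%), 460 higher (2.08%) and 3286 lower (14.9%).

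The gene with the widest gap was Xaf1, an interferon-inducible gene whose product binds the apoptosis inhibitor XIAP. Its probe set 1443621_PM_at had 8.39, 8.64 and 8.29 log2 in KO hearts, against 3.50, 3.58 and 3.11 in WT hearts. All KO hearts were high and all WT hearts lay below the filter value, so the rise of 5.04 (SE 0.82, adjusted p = 0.0432) has an uncertain size. This SE includes the spread in lungs and fibroblasts. In a limma fit of the heart arrays alone, Xaf1 was 1 of 2 called probe sets (adjusted p = 5.11e-04). The other Xaf1 probe set, 1443698_PM_at, ran the opposite way, with 5.15, 5.46 and 5.54 in KO and 6.45, 6.53 and 6.25 in WT hearts (difference -1.03, adjusted p = 0.117). Xiap itself had 8.52, 8.67 and 8.65 in KO and 8.78, 9.01 and 8.98 in WT hearts (difference -0.31, adjusted p = 0.269).

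Of 20 kept interferon-stimulated genes, 7 were higher and 13 lower in KO hearts. Xaf1 was the 1 called (0.0196% of genes were called higher). It was also the 1 higher with an unadjusted p under 0.05, and 1 was lower with such a p (against 1.89% and 15.4% of all genes). KO heart 1603 lay above all WT hearts at 10 of the 20 and below them at 3 (24.3% and 28.8% of kept probe sets). The median difference was -0.20. This median was 0.02 after quantile normalization and -0.05 without KO heart 1602. Without that heart 3 of 19 were higher and 0 lower with an unadjusted p under 0.05 (3.06% and 6.7% of genes), and 4 were higher with no overlap (12.9% of genes). Ddx58, a sensor of viral RNA, had a difference of -0.75 (adjusted p = 0.211) and Ifih1, another such sensor, -0.54 (adjusted p = 0.399). The promoter of Xaf1 is shown because this gene had the largest difference among the called ones. It is a RefSeq window from 250 bases before to 50 after a transcript start on GRCm38.p6, chr11:72301379-72301678, plus strand. This start lies past the first annotated base of the gene, 72301461, which is inside the window. The sequence is read 5′ to 3′, with no base in capitals because the motif searched was not found.

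Xaf1: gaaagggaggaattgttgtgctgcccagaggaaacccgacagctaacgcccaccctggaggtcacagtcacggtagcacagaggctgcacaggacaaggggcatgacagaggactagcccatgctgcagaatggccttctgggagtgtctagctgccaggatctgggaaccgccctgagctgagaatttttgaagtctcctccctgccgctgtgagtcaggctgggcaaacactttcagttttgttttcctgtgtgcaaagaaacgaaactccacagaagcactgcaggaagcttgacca

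The motif searched was GAAA repeated after 2 bases, on both strands, a form of the sequence that interferon regulatory factors bind. It stands in 1131 of all 32851 promoter windows (3.44%), or in the windows of 1079 of 27025 genes (3.99%). In the list it stands in the windows of 9 of the 14 interferon-stimulated members that have a window. No match in the Xaf1 window says only that these letters are not in it. Shorter or otherwise spaced forms were not searched.

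Rbp7, a binding protein of retinol inside cells that is known from endothelium and fat, rose to 8.98, 8.99 and 8.62 log2 in KO hearts, against 6.74, 7.29 and 7.56 in WT hearts (difference 1.66, SE 0.25, adjusted p = 0.0240). Every KO heart lay more than 1 log2 above every WT heart. None of the other retinoid genes passed the test. Aldh1a1, which makes retinoic acid, had 7.03, 8.35 and 7.98 in KO and 8.57, 8.46 and 8.66 in WT hearts (difference -0.78, adjusted p = 0.182). Of the 10 kept genes of retinoid binding and metabolism, 1 was higher, Rbp7 itself, and 1 lower with an unadjusted p under 0.05. Over all genes these shares were 1.89% and 15.4%. The nuclear receptor genes Rxra and Rxrb had differences of -0.28 and -0.02.

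Fam107a, a stress-inducible gene for a protein that binds actin, fell. Its probe set 1434202_PM_a_at had 4.54, 4.77 and 4.37 log2 in KO hearts, against 6.63, 6.47 and 6.93 in WT hearts, a difference of -2.12 (SE 0.26, adjusted p = 0.0140). The groups lay 1.70 apart, and KO heart 1602 was in the middle of the KO hearts here. Another probe set of the gene, 1434203_PM_at, lay from 3.87 to 4.45 in KO and from 5.04 to 5.53 in WT hearts (difference -1.19, adjusted p = 0.0950), and the third, 1435918_PM_at, was below the filter in every heart. In lungs of the same mice the difference of 1434202_PM_a_at was -2.07, and the heart difference minus the lungs difference was -0.04 (SE 0.36).

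Fam107a is a known target of the glucocorticoid receptor, and other target genes of this receptor also lay lower in KO hearts. Of the 17 kept glucocorticoid-responsive genes, 8 were lower and 0 higher with an unadjusted p under 0.05 (15.4% and 1.89% of all genes). With no overlap of KO and WT hearts 7 were lower (14.5% of all genes), and the median was -0.58, against -0.15 over all genes. Without KO heart 1602 the median was -0.45 against -0.02, and 8 of 18 were lower with no overlap, against 15.8%. Fam107a was the 1 called (0.0978% of genes were called lower). Fkbp5, which lowers the receptor's affinity for hormone, had 4.80, 5.34 and 5.98 log2 in KO hearts, against 6.31, 6.63 and 6.77 in WT hearts (difference -1.20, adjusted p = 0.0675). Cebpd, a transcription factor gene of the acute phase, had 6.88, 7.95 and 7.87 in KO and 8.32, 8.52 and 8.68 in WT hearts (difference -0.94, adjusted p = 0.145). Nfkbia, the inhibitor of NF-kappaB, differed by -0.58 (adjusted p = 0.157).

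The Fam107a promoter is shown with a motif of this receptor in capitals, the half-sites GNACA and TGTNC set 3 bases apart, searched on both strands. The window is chr14:8309728-8310027 on GRCm38.p6, minus strand, printed 5′ to 3′ along the gene, from RefSeq.

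Fam107a: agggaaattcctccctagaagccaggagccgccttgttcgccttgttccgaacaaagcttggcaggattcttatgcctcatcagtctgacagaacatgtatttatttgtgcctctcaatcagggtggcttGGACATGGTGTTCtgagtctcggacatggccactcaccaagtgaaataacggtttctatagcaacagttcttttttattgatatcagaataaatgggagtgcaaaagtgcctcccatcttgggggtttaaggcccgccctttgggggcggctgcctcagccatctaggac

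The gene has windows at more than 1 transcript start, and the motif begins at position -120 from the start used here. It stands in 156 of 32851 windows (0.475%), or in the windows of 145 of 27025 genes (0.537%). In the list it stands in the windows of 3 of the 14 genes that have a window, Fam107a, Sgk1 and Mt1, and the stretches around it in the other 2 genes, at chr10:21993688-21993728 and chr8:94178981-94179021 on the plus strand, are set beside the same stretch of Fam107a for comparison.

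Fam107a: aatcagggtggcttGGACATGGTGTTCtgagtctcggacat

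Sgk1: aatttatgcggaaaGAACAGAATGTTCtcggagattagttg

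Mt1: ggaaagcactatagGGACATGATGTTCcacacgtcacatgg

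Sgk1 and Mt1, named for their motif, differed less than Fam107a. Sgk1, a kinase that raises sodium uptake, had 8.28, 8.93 and 8.14 log2 in KO and 8.61, 9.01 and 9.15 in WT hearts (difference -0.47, adjusted p = 0.269). Mt1, a metallothionein gene, had 11.20, 11.24 and 10.85 in KO and 11.21, 11.21 and 11.34 in WT hearts (difference -0.16, adjusted p = 0.785). A match is a description of the sequence and not a site of binding.

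The other called genes with known roles in the cytoskeleton, in mitochondria, in adhesion and in signalling were lower in KO hearts, apart from Mrpl28. Ndel1, a regulator of the dynein motor at the centrosome, fell to 3.94, 4.97 and 5.10 log2 in KO hearts, against 6.67, 6.58 and 6.55 in WT hearts (difference -1.93, SE 0.28, adjusted p = 0.0226). The WT hearts lay close together, and KO heart 1602 was about 1 log2 below the other KO hearts. Its other probe set, 1422568_PM_at, is much brighter and overlapped between groups (difference -0.26, adjusted p = 0.397). Nin, the gene of ninein, which anchors microtubules at the centrosome, had 4.80, 5.52 and 5.50 in KO and 6.32, 6.61 and 6.44 in WT hearts (adjusted p = 0.0432), and 1 other kept probe set of it differed by -0.18 (adjusted p = 0.586). In the list of 23 kept actin cytoskeleton and centrosome genes, 8 were lower with an unadjusted p under 0.05 (15.4% of all genes) and 7 were lower with no overlap (14.5%). Flna, an actin crosslinker, averaged 6.65 ± 0.43 in KO and 7.65 ± 0.28 in WT hearts (SD, n = 3 each, adjusted p = 0.0845, limma). The difference was -0.54 for Tpm3, a tropomyosin (adjusted p = 0.126), and -1.81 for Myl9, a light chain of smooth muscle myosin (adjusted p = 0.114).

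Fundc1, a receptor for the removal of mitochondria, fell to 4.46, 4.37 and 4.64 log2 in KO hearts, against 5.35, 5.54 and 5.33 in WT hearts (difference -0.92, SE 0.13, adjusted p = 0.0226). This was its dimmest probe set. The brightest, 1424215_PM_at, overlapped between the groups (difference -0.13, adjusted p = 0.715). Slc25a37, which brings iron into mitochondria, also had a called dim and an overlapping bright probe set. The called probe set 1417750_PM_a_at had 5.04, 5.41 and 6.09 in KO and 7.17, 6.72 and 7.73 in WT hearts (adjusted p = 0.0400), while the brightest, 1438177_PM_x_at, had 8.97, 9.10 and 9.06 in KO and 8.89, 9.71 and 8.93 in WT hearts (difference -0.13, adjusted p = 0.829).

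Pde1c, a phosphodiesterase that breaks down cyclic AMP and cyclic GMP when bound by calmodulin, fell in its probe set 1444386_PM_at, with 3.24, 3.37 and 3.26 log2 in KO hearts, against 4.19, 4.81 and 4.45 in WT hearts (difference -1.19, SE 0.16, adjusted p = 0.0169). The KO hearts lay at the level of genes below the filter. The brightest probe set of the gene, 1440374_PM_at, overlapped, with 7.95, 8.03 and 8.47 in KO and 8.43, 8.52 and 7.76 in WT hearts. Of the 11 kept phosphodiesterase genes, each taken by its brightest probe set, 2 were lower and 0 higher with an unadjusted p under 0.05 (15.4% and 1.89% of all genes), a share near that of all genes. Pde4b had a difference of -0.50 (adjusted p = 0.292) and Pde1a of -0.62 (adjusted p = 0.234).

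Dsc2, a cadherin of desmosomes, fell in probe set 1421156_PM_a_at to 4.57, 5.26 and 5.24 log2 in KO hearts, against 5.92, 6.15 and 6.52 in WT hearts (adjusted p = 0.0432). Its brighter probe set had 7.53, 7.31 and 7.54 in KO and 8.13, 7.79 and 7.98 in WT hearts, also without overlap (difference -0.51, adjusted p = 0.315). Both probe sets of Dsc2 were thus lower in all 3 KO hearts. The intercalated disc joins heart muscle cells end to end. Of 18 kept genes in its list, 4 were lower and 2 higher with no overlap (14.5% and 4.61% of all genes). Without KO heart 1602 these counts were again 4 and 2, against 15.8% and 12.9% of genes. Ctnnb1, the beta-catenin gene, had a difference of -0.22 (adjusted p = 0.327), and Des, the desmin gene, had 11.07, 11.30 and 11.11 in KO and 10.80, 10.79 and 10.76 in WT hearts (difference 0.38, adjusted p = 0.505).

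Rbms3, an RNA-binding protein gene of connective tissue cells, was the called gene with the most probe sets that moved alike. Its called probe set had 4.58, 4.89 and 5.57 log2 in KO hearts, against 6.19, 6.35 and 6.78 in WT hearts (adjusted p = 0.0473). The 3 others differed by -1.15, -0.68 and -1.35 (adjusted p from 0.0950 to 0.170), and none of the 4 overlapped. Cdk6, a kinase that starts the cell cycle, had 4.61, 4.83 and 5.41 in KO and 5.88, 5.81 and 6.28 in WT hearts (adjusted p = 0.0473), and its probe set 1435338_PM_at had a difference of -1.09 (adjusted p = 0.0675).

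Enpep, the aminopeptidase that trims angiotensin II, fell to 6.21, 6.58 and 6.67 log2 in KO hearts, against 7.38, 7.81 and 7.57 in WT hearts (difference -1.10, SE 0.19, adjusted p = 0.0487). Hnmt, which inactivates histamine, had 5.23, 5.67 and 6.05 in KO and 7.04, 6.90 and 7.12 in WT hearts (adjusted p = 0.0473). Tram2, a membrane protein linked to the making of collagen, had 3.22, 3.45 and 3.81 in KO and 4.25, 4.67 and 4.90 in WT hearts (adjusted p = 0.0473). Its KO mean of 3.50 was below the filter value, and its other probe set, 1419342_PM_at, was not kept (difference 0.05). In each of these 3 genes KO heart 1602 was the lowest heart. The remaining called genes were Glis2 (a zinc finger transcription factor, -1.32), Pcnx3 (-0.96), Cnpy4 (-0.86) and 1810014B01Rik (-0.67), with adjusted p from 0.0226 to 0.0473.

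**Figure D2:**
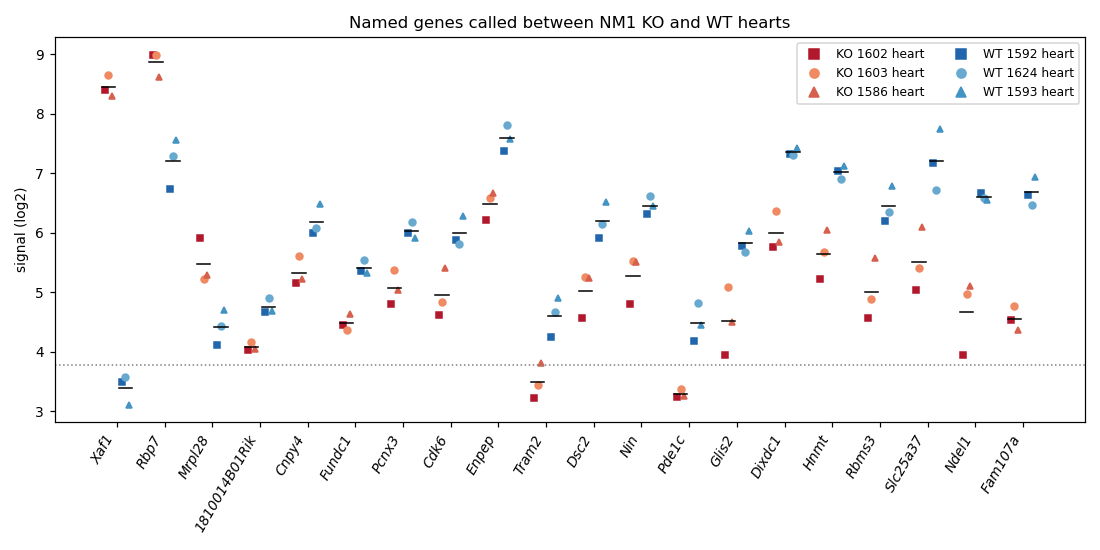
Signals (log2) of the 20 named genes called between KO hearts (red, left of each pair) and WT hearts (blue, right of each pair), with 1 point per heart, a bar at each group's mean, and a dotted line at the filter value of 3.79. KO and WT hearts do not overlap for any of them, and Xaf1, Rbp7 and Mrpl28 are the 3 that are higher in KO hearts.

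Of the 8 probe sets without a gene name, 1434914_PM_at had 3.03, 3.20 and 3.32 log2 in KO hearts, against 6.32, 6.67 and 6.62 in WT hearts (difference -3.36, SE 0.26, adjusted p = 1.01e-04), with KO hearts below the filter value. It stayed called in all 16 alternatives in which it was tested, with differences from -3.47 to -3.08. The higher one, 1425700_PM_at, had 6.17, 5.88 and 5.66 in KO and 4.74, 5.04 and 4.78 in WT hearts (difference 1.05, adjusted p = 0.0169). In 1421811_PM_at (-2.78) and 1448021_PM_at (-2.58) WT heart 1624 lay more than 1 log2 below the other WT hearts. The other 4 were 1435702_PM_s_at (-1.15), 1448162_PM_at (-1.38), 1417695_PM_a_at (-1.14) and 1458830_PM_at (-1.44). The KO means of 1421811_PM_at (3.70), 1417695_PM_a_at (3.73) and 1458830_PM_at (3.68) were also below the filter value, so these were kept through their WT hearts.

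Of the 20 named genes 2, Xaf1 and Ndel1, are on chromosome 11 with Myo1c, 3.35 and 6.83 Mb before it on GRCm38.p6. Chromosome 11 holds 8.42% of the kept probe sets with 1 gene. Just past the threshold stood Cx3cl1, the chemokine fractalkine (difference -0.95, adjusted p = 0.0512), Zfp865 (0.86) and Glod4 (-0.73), while the largest adjusted p among the called was 0.0487.

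Without KO heart 1602, 12 of 22291 probe sets were called (0.0538%), and 8 of these were among the 28: 1434914_PM_at, 1425700_PM_at, 1421811_PM_at, Fam107a, Ndel1, Pde1c, Pcnx3 and Fundc1. The others, named after their values were seen, were 1424360_PM_at and 1443149_PM_at, Zfp947 (5.51 and 5.89 log2 in KO hearts 1603 and 1586, against 4.25, 4.17 and 3.96 in WT hearts) and Sftpc, a surfactant gene of lung epithelium. Sftpc had 3.41, 5.46 and 6.22 in KO and 4.13, 4.29 and 3.91 in WT hearts. Scgb1a1, a secretory gene of airway epithelium, had 3.50, 8.05 and 6.49 in KO and 3.53, 4.18 and 5.06 in WT hearts. Both genes thus stood higher in KO hearts 1603 and 1586 than in the other 4 hearts. The other 3 kept markers of lung epithelium differed by 0.02 to 0.34. The part of lung tissue in other differences was not tested. The number of calls changed with each heart left out. There were 1054 without KO heart 1603 and 113 without KO heart 1586. Without WT hearts 1592, 1624 and 1593 in turn there were 5, 40 and 3. Fam107a stayed called in 12 of 16 alternatives, Pde1c in 10 of 14, Rbp7 in 10 of 17 and Xaf1 in 8 of 16.

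Large differences with no overlap did not always rest on all hearts of a group. Among the 15 probe sets with the largest positive ones, 9 rested on KO heart 1602 alone. Pfdn5, a prefoldin subunit, had 7.84 in that heart and 3.03 and 3.12 in the other KO hearts, against 2.92, 2.95 and 2.92 in WT hearts, and Ep400, Tcp11x2, Hnrnpab, Fam221b, Ivl, Cog1 and Ppp3r1 had the same form. Pisd-ps3, a pseudogene of phosphatidylserine decarboxylase, was high in all KO hearts, with 8.96, 9.03 and 8.85 in KO and 5.69, 7.61 and 6.53 in WT hearts in its brightest probe set (difference 2.34, adjusted p = 0.0737). All 3 of its probe sets had this form.

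The 15 with the largest negative differences included genes of matrix and adhesion. Gdpd3, a lysophospholipase D, had 3.71, 4.04 and 4.17 log2 in KO and 7.74, 4.41 and 9.21 in WT hearts, so that WT hearts differed among themselves by more than 4 log2. Tspan2, a tetraspanin, had 2.78, 3.25 and 3.71 in KO and 4.97, 5.30 and 5.36 in WT hearts (difference -1.96, adjusted p = 0.0677). Vit, the gene of vitrin, had a difference of -1.92 (adjusted p = 0.0799), Itga8, an integrin subunit, -1.84, Itih5 -1.88, Comp, a cartilage matrix protein, -1.88, Cd24a -1.83 and Slpi, a protease inhibitor, -1.82.

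The labelled tissue was borne out by its markers. The 9 measured heart muscle genes had means of 13.2, 13.2 and 13.2 log2 in KO hearts, against 13.1, 13.1 and 13.2 in WT hearts. Myl2, the light chain of ventricular myosin, had 13.98, 13.91 and 13.97 in KO and 13.92, 13.83 and 13.92 in WT hearts, and Tnnt2 and Actc1, of the thin filament, differed by -0.01 and 0.06. Myl3, Tnni3, Mb, Ryr2, Ttn and Actn2 differed by 0.05, 0.04, 0.02, 0.03, 0.03 and 0.15. None of the 9 passed the test.

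Atrial transcripts split the KO hearts. Myl7, the atrial regulatory light chain, had 4.08, 12.14 and 5.66 log2 in KO hearts, against 12.44, 11.14 and 13.23 in WT hearts. Myl4, the atrial essential light chain, had 4.18, 11.58 and 5.42 in KO and 11.79, 10.45 and 12.62 in WT hearts. KO heart 1603 lay among the WT hearts in both genes, and KO hearts 1602 and 1586 lay more than 5 log2 below every WT heart. The differences of -4.97 (SE 1.57, adjusted p = 0.167) and -4.56 (SE 1.56, adjusted p = 0.186) did not pass. In bulk tissue, fewer cells of a type and less RNA per cell cannot be told apart, and the labels do not say which chambers were taken.

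The rest of the atrial list followed this split in part. Nppa, the atrial natriuretic peptide, had 9.79, 12.91 and 10.61 in KO and 13.15, 12.44 and 13.60 in WT hearts. Dkk3 differed by -3.28 (adjusted p = 0.139), Hamp, the hepcidin gene, by -2.58, Fgf12 by -1.80, Stard10 by -1.44, Bmp10 by -0.78 and the channel gene Kcnj3 by -0.74. Kcnj5 (-0.31), Clu (-0.09) and Kcnk3 (0.06) showed little of it, and Gja5 was below the filter. Of the 12 kept members, 7 were lower with an unadjusted p under 0.05 (15.4% of all genes). The spread behind this p includes lungs and fibroblasts, whereas Myl7 had an SD of 4.27 among KO and 1.06 among WT hearts. But 0 of the 12 had KO and WT hearts that did not overlap (14.5% of all genes were lower and 4.61% higher so). The list median was -1.62, and 0.00 with the mean of Myl4 and Myl7 as a covariate, a fit in which these genes define the term.

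Mesothelial transcripts split the KO hearts the same way. Lrrn4 had 3.95, 7.42 and 4.14 log2 in KO and 8.74, 6.85 and 7.19 in WT hearts (difference -2.42, adjusted p = 0.157), and Upk1b, a uroplakin, had 2.70, 5.27 and 3.40 in KO and 6.32, 4.66 and 4.77 in WT hearts. Gpm6a (-1.45) and Rspo1, a Wnt agonist (-1.08), were similar. Means over the 12 kept members were 3.96, 5.93 and 4.10 in KO and 6.93, 5.34 and 5.40 in WT hearts. WT heart 1592 was the highest heart here, while WT heart 1593 was the highest in atrial genes.

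Between KO heart 1603 and the mean of the other KO hearts, 663 kept probe sets were more than 1 log2 higher in 1603 and 147 lower, and 47 were more than 2 log2 higher and 8 lower. The 15 largest, given as a description, were probe sets of Myl7 (7.27), Myl4 (6.77), Dkk3 (4.56 and 3.30), Cst9 (3.63), Car3 (3.50), Lrrn4 (3.38), Upk3b (3.37 and 3.23), Hamp (3.30 and 3.13), Scgb1a1 (3.05), Fxyd3 (2.78), Nrn1 (2.76) and Nppa (2.70). Most belong to the atrial and mesothelial lists. Car3, a carbonic anhydrase of fat and muscle, also varied among WT hearts, with 8.21, 5.72 and 10.22.

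**Figure D3:**
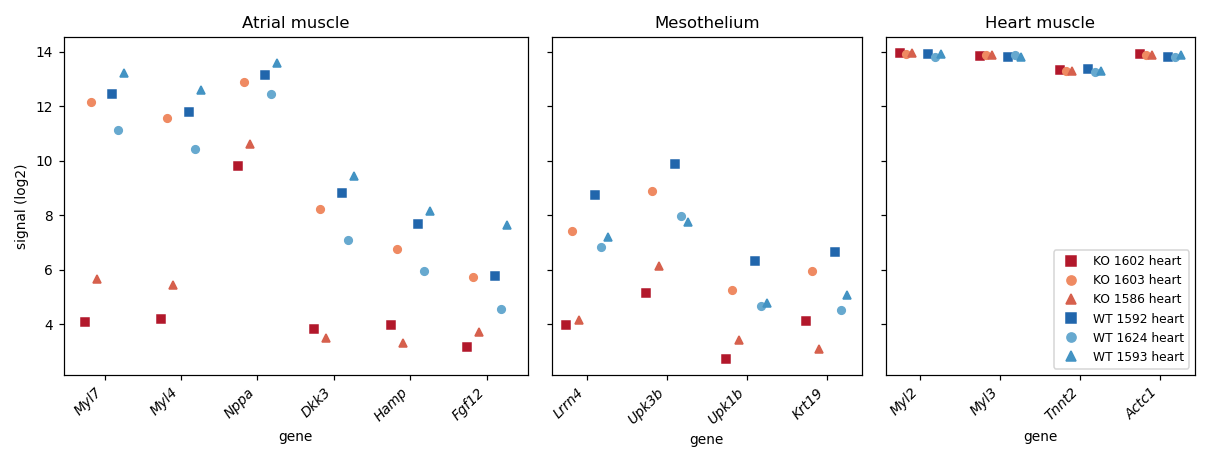
Signals (log2) of atrial, mesothelial and heart muscle genes in KO hearts (red, left of each pair) and WT hearts (blue, right of each pair), with 1 point per heart. KO heart 1603 lies among the WT hearts in the atrial and mesothelial genes shown, KO hearts 1602 and 1586 lie below all WT hearts in them, and the heart muscle genes are at 13.26 to 13.98 in all 6.

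Matrix and connective tissue genes lay lower in KO hearts. Of 45 kept extracellular matrix genes, 28 were lower and 1 higher with an unadjusted p under 0.05 (15.4% and 1.89% of all genes), 15 were lower with no overlap (14.5%), and the median was -0.75, against -0.15 over all genes. None was called. Fn1, the fibronectin gene, had 5.85, 7.43 and 6.21 log2 in KO hearts, against 8.87, 7.72 and 8.56 in WT hearts (difference -1.89, adjusted p = 0.0652). Timp2, an inhibitor of matrix proteases, had 8.25, 9.21 and 8.74 in KO and 9.61, 9.40 and 9.95 in WT hearts (adjusted p = 0.0914), and Vcan, the proteoglycan versican, 3.36, 5.07 and 4.42 in KO and at least 5.41 in WT hearts (adjusted p = 0.101). In all 3 genes KO heart 1603 was the highest KO heart and lay close below the lowest WT heart. Fmod, the fibromodulin gene, differed by -2.09, Col15a1 by -1.27, Fbln5 by -1.13, Loxl1, which crosslinks elastin, by -1.12, Prelp by -1.04 and the protease gene Mmp14 by -1.01.

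Without KO heart 1602 the matrix median was -0.63, against -0.02 over all kept probe sets, with 16 of 45 lower with no overlap (15.8% of genes) and 20 with an unadjusted p under 0.05 (6.7% of genes). With the atrial covariate the median was -0.26, and all kept probe sets then had a median of 0.01. List means were 7.09, 7.91 and 7.30 in KO and 7.92, 8.11 and 8.54 in WT hearts and KO heart 1603 lay next to WT heart 1592. Genes of fibroblasts also had KO heart 1603 as the highest and KO heart 1602 as the lowest KO heart. Their means were 7.26, 8.13 and 7.76 in KO and 8.29, 8.24 and 8.91 in WT hearts. The median of this list was -0.73, and -0.17 with the atrial covariate. There Tcf21, a transcription factor of cardiac fibroblasts, differed by -0.99 (adjusted p = 0.104), Gsn, the actin-severing gelsolin, by -0.82 (adjusted p = 0.115) and Vim by -0.73 (adjusted p = 0.103), with no overlap.

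Endocardial genes, of the inner lining of the heart, were lower in 5 of 5 kept members with an unadjusted p under 0.05 (15.4% of all genes), at a median of -1.32. Without KO heart 1602, 1 of 5 had such a p (6.7% of genes) and the median was -0.83. It was -0.85 without WT heart 1592 and -0.34 with the atrial covariate. Cdh11, a cadherin, had 4.43, 6.73 and 5.81 log2 in KO and 8.15, 7.04 and 7.44 in WT hearts (difference -1.89, adjusted p = 0.0866). Npr3, the clearance receptor of natriuretic peptides, had 6.16, 7.89 and 7.36 in KO and 9.40, 8.02 and 7.94 in WT hearts (difference -1.32, adjusted p = 0.247), and Cytl1 and Nfatc1, a transcription factor of valve formation, differed by -1.41 and -0.74. In each of these 4 genes KO heart 1602 was the lowest and KO heart 1603 the highest KO heart. Endothelial genes had a median of -0.30 over 14, and -0.17 without KO heart 1602, with 1 lower with an unadjusted p under 0.05, Pecam1 (-0.68). Among smooth muscle and pericyte genes, Myh11 had 5.26, 5.91 and 5.07 in KO and 6.81, 6.54 and 7.45 in WT hearts (difference -1.52, adjusted p = 0.111).

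Genes of Wnt, TGF-beta and BMP signalling also lay lower in KO hearts. In the Wnt list, 10 of 17 kept genes were lower with an unadjusted p under 0.05 (15.4% of all genes), 8 with no overlap (14.5%), and the median was -0.69. Dixdc1, an activator of Wnt signalling, was the 1 called, with 5.76, 6.36 and 5.84 log2 in KO hearts, against 7.31, 7.31 and 7.42 in WT hearts (difference -1.36, SE 0.22, adjusted p = 0.0400). The secreted antagonists Wif1 (-1.55, adjusted p = 0.0675), Sfrp2 (-1.56, adjusted p = 0.101) and Sfrp1 (-1.20, adjusted p = 0.157) and the receptor Fzd7 (-0.98, adjusted p = 0.101) also had no overlap. Wif1 had 3.40, 4.69 and 4.85 in KO and 6.24, 5.85 and 5.52 in WT hearts. An activator, antagonists and a receptor of the pathway thus lay lower together.

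In TGF-beta and BMP signalling, 10 of 24 kept genes were lower with an unadjusted p under 0.05 (15.4% of all genes) and 11 with no overlap (14.5%), at a median of -0.56. The number with such a p was 6 of 24 without KO heart 1602 (6.7% of genes). Smad3, which carries the TGF-beta signal to the nucleus, had 6.14, 6.57 and 6.51 log2 in KO hearts, against 6.99, 6.91 and 7.05 in WT hearts (difference -0.57, adjusted p = 0.101). The inhibitory Smad7 had 5.38, 5.83 and 5.75 in KO and 6.57, 6.28 and 7.16 in WT hearts (difference -1.02, adjusted p = 0.122), Smad1 differed by -0.54 and the ligand gene Bmp4 by -0.93. Kept probe sets at the level of these lists (WT mean from 6 to 7 log2) had a median of -0.29 in all hearts and -0.06 without KO heart 1602. Without that heart the medians were -0.39 for the Wnt and -0.36 for the TGF-beta and BMP list. With the atrial covariate they were -0.38 and -0.11, against 0.01 over all genes.

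Immediate early genes, which respond within minutes to stimuli, were lower in 19 of 19 kept members (median -0.56). Of all 10224 genes 7303 were lower (median -0.15). Among the 19, 10 had an unadjusted p below 0.05 (15.4% of all genes were lower with such a p) and 5 showed no overlap (14.5%). Without KO heart 1602, 3 of 20 had such a p (6.7% of genes). Nr4a1, a nuclear receptor, had 6.48, 7.26 and 7.58 log2 in KO hearts, against 8.33, 7.93 and 9.07 in WT hearts (difference -1.34, adjusted p = 0.130). Klf4 differed by -0.70, Klf2 by -0.63 and Btg2 by -0.61. List means were 6.60, 7.02 and 6.86 in KO and 7.35, 6.96 and 8.02 in WT hearts. KO heart 1603 thus lay above WT heart 1624, and without WT heart 1593, the highest, the median was -0.32. Clock genes had a median of -0.33 over 15, but -0.16 without KO heart 1602 and -0.62 without KO heart 1586, with Bhlhe40, a repressor of the clock, at -0.67 (adjusted p = 0.139), Per1 at -0.66, Per2 at -1.12 and Nfil3, also a repressor, at 0.47 (adjusted p = 0.145).

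Mitochondrial ribosomal proteins, which translate the genes of mitochondrial DNA, ran against the general shift. Of 70 kept genes, 64 were higher in KO hearts, 29 with no overlap (4.61% of all genes were higher with no overlap), and 0 were lower with no overlap. An unadjusted p under 0.05 was met by 7, all higher (1.89% of genes). The differences were small, with a median of 0.16 and a range from -0.13 to 0.40. The list means were 9.30, 9.34 and 9.32 log2 in KO hearts, against 9.23, 9.23 and 9.06 in WT hearts. The lowest WT heart, 1593, was the lowest of 6 at 56 of the 70 genes, and without it the median was 0.11. Without KO heart 1602 it was 0.17, with 36 of 70 higher with no overlap (12.9% of genes), and with the atrial covariate 0.14. Kept probe sets with WT means from 9 to 10 log2 had a median of -0.02, and 54.8% of them were lower in KO.

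The gene of this group that was called, Mrpl28 of the large subunit, had 5.91, 5.22 and 5.28 log2 in KO hearts, against 4.11, 4.44 and 4.71 in WT hearts, in its dim probe set 1456313_PM_x_at (difference 1.05, SE 0.18, adjusted p = 0.0473). Its bright probe set had 9.91, 9.90 and 9.83 in KO and 9.56, 9.55 and 9.39 in WT hearts, again without overlap (difference 0.38, adjusted p = 0.261). Mrps24, of the small subunit, had 10.47, 10.38 and 10.35 in KO and 10.05, 10.09 and 9.86 in WT hearts (difference 0.40, adjusted p = 0.146). Mrpl52 differed by 0.36, Mrps7 by 0.34 and Mrps16 by 0.30. In these 4 genes the KO hearts lay close together and above all WT hearts.

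**Figure D4:**
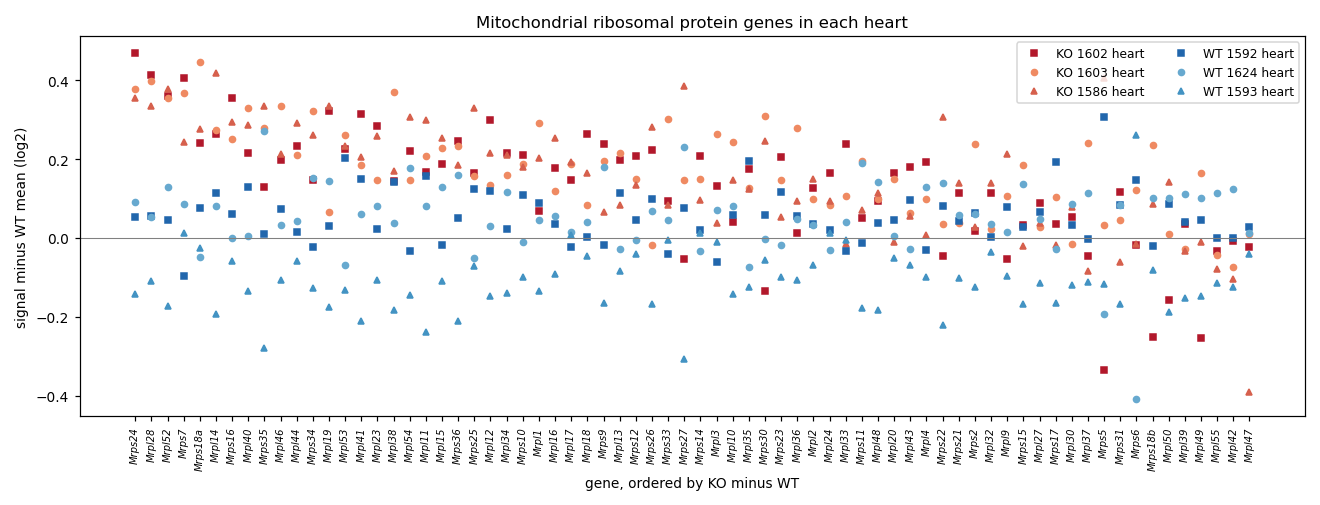
Signal of each heart minus the mean of the WT hearts (log2) for the 70 mitochondrial ribosomal protein genes, ordered by KO minus WT, with KO hearts in red and WT hearts in blue. At the left end all 3 KO hearts lie above all WT hearts, and WT heart 1593 is the lowest heart at 56 of the 70 genes.

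Genes of the respiratory chain showed smaller differences in the same direction. For complex I, 31 of 33 kept genes were higher, 8 with no overlap (24.2%), at a median of 0.09. For complexes II to V 31 of 36 were higher, 7 with no overlap (19.4%), at 0.06. Of all genes 4.61% were higher with no overlap. Kept probe sets with WT means from 12 to 15 log2 had a median of 0.02, and 42.0% of them were lower in KO. Without KO heart 1602 the counts were again 8 of 33 and 7 of 36, but against 12.9% of genes. Without WT heart 1593 the medians were 0.0454 and 0.0347. Ndufb2 had 12.17, 12.05 and 12.20 log2 in KO and 11.96, 11.89 and 11.80 in WT hearts (difference 0.26, adjusted p = 0.390), and Ndufa7 and Ndufb4 differed by 0.22 and 0.18. Uqcrq of complex III differed by 0.19 and Atp5e of the ATP synthase by 0.18. None had an unadjusted p under 0.05, and with the atrial covariate the medians were 0.02 and 0.01. Of the genes of fuel use, Ucp3, an uncoupling protein of muscle, had 6.76, 7.07 and 6.75 in KO and 7.77, 7.88 and 7.28 in WT hearts (difference -0.78, adjusted p = 0.101), and Cpt1a, which admits fatty acids to mitochondria, differed by -0.66 (adjusted p = 0.209). The insulin-responsive glucose transporter Slc2a4 differed by 0.27 with no overlap.

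Genes of contraction differed little. Of 25 kept sarcomere genes, 0 had an unadjusted p under 0.05, and the median was 0.04. Calcium handling genes had 5 of 15 higher and 2 lower with no overlap (4.61% and 14.5% of all genes). Without KO heart 1602, 6 were higher and 3 lower with no overlap, against 12.9% and 15.8% of genes. Asph, the locus that also encodes junctin of the calcium release unit, had 10.49, 10.49 and 10.31 log2 in KO hearts, against 9.57, 10.19 and 9.93 in WT hearts (difference 0.53, adjusted p = 0.233). Itpr2, the inositol trisphosphate receptor of heart muscle, had 6.35, 6.70 and 6.24 in KO and 6.98, 6.86 and 6.93 in WT hearts (difference -0.49, adjusted p = 0.156), and Camk2d differed by -0.22. Of the genes of hypertrophy, Postn (periostin) differed by -1.64 (adjusted p = 0.176) and Ccn2 by -0.78 (adjusted p = 0.199), both with overlap, Mef2d by -0.26 and Gata4 by 0.28.

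The machinery that NM1 is known to work with showed little difference. Of the 17 kept genes of RNA polymerase I and ribosomal RNA gene transcription, 1 was higher with an unadjusted p under 0.05 and 0 lower. Over all genes these shares were 1.89% and 15.4%. The list median was -0.04, but 0.10 without KO heart 1602 and 0.11 after quantile normalization. Polr2l, a subunit shared by all 3 nuclear polymerases, had 10.67, 10.83 and 10.80 log2 in KO hearts, against 10.52, 10.47 and 10.52 in WT hearts (difference 0.26, adjusted p = 0.207), and Polr2f, likewise shared, differed by 0.23. Ttf1, which ends transcription of ribosomal RNA genes, differed by -0.42 (adjusted p = 0.490) and Taf1a, of the promoter factor SL1, by -0.41 (adjusted p = 0.316).

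All 7 kept genes of the B-WICH complex and other NM1 partners were lower (median -0.16), as were 7303 of all 10224 genes (median -0.15). With no overlap 1 of the 7 was lower (14.5% of all genes). Without KO heart 1602 the list median was -0.07, against -0.02 over all genes, and 6 of the 7 were lower. Actb, the actin gene, had 11.80, 11.80 and 11.59 log2 in KO hearts, against 11.93, 12.10 and 12.25 in WT hearts (difference -0.36, adjusted p = 0.212), Ddx21, an RNA helicase, differed by -0.31, Baz2a by -0.18 and the splicing factor Sf3b1 by -0.16. Ribosome biogenesis genes had a median of -0.21 over 21, but -0.07 without KO heart 1602 and -0.05 after quantile normalization, with Bop1 at -0.44 and Npm1, the gene of nucleophosmin, at -0.17. For 61 genes of cytosolic ribosomal proteins it was 0.00, where Rpl3 had 10.49, 10.85 and 10.78 in KO and 11.09, 10.92 and 11.18 in WT hearts (difference -0.35, adjusted p = 0.170) and Rps6 differed by -0.23.

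Red cell genes lay lower in KO hearts. Alas2, which starts heme synthesis in red cell precursors, had 4.44, 4.52 and 5.28 log2 in KO hearts, against 7.54, 5.81 and 7.50 in WT hearts (difference -2.20, adjusted p = 0.134). Hba-a1, an alpha globin gene, had 12.98, 12.94 and 13.19 in KO and 13.91, 13.46 and 13.91 in WT hearts (difference -0.73, adjusted p = 0.182), and Bpgm and the band 3 gene Slc4a1 differed by -1.04 and -1.07. In these 4 of 7 kept genes KO and WT hearts did not overlap (14.5% of all genes were lower with no overlap). WT heart 1624 was the lowest WT heart in these 4. The median of the list was -0.73, -0.70 without KO heart 1602 and -0.46 without WT heart 1592. It was -0.43 with no filter and -0.13 with a filter at the upper quartile, which change the genes counted. WT heart 1624 was also the lowest WT heart for the unnamed probe sets 1421811_PM_at (5.38) and 1448021_PM_at (5.83). This was not particular to red cell genes, since Myl7, Fn1 and Cdh11 had it as well. The labels do not state whether the hearts were rinsed of blood.

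**Figure D5:**
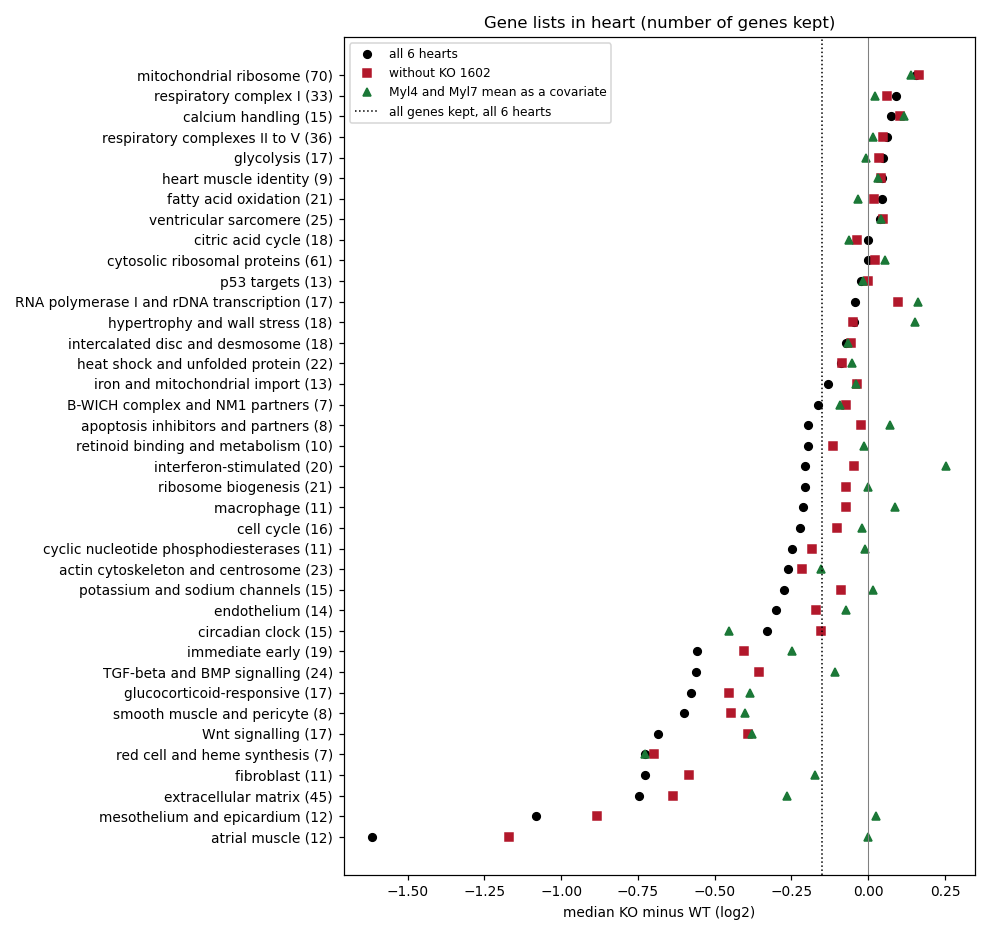
Median difference KO minus WT (log2) of the gene lists with at least 7 kept genes, with the number of kept genes in brackets, in all 6 hearts (black circles), without KO heart 1602 (red squares) and with the mean of Myl4 and Myl7 of each heart as a covariate (green triangles). The dotted line marks the median of all genes, -0.15. Mitochondrial ribosome genes are at 0.14 to 0.17 in all 3 fits, and the atrial and mesothelial lists move to near 0 with the covariate.

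The genotype difference in heart was set against that in lungs of the same mice. The difference between them was called for 0 of 22098 probe sets (0.0%) in limma, with a smallest adjusted p of 0.718, and 1524 (6.9%) had an unadjusted p under 0.05. Of the 28 probe sets called in heart, 21 had the same sign in lungs, and 6 had an unadjusted p under 0.05 there, against 5.78% of these probe sets in all. These were Fam107a, Xaf1, Ndel1, Rbp7, Cnpy4 and 1434914_PM_at, with lungs differences of -2.07, 6.41, -1.15, 0.72, -0.34 and -2.12. Dixdc1 had 0.11, Slc25a37 0.21 and Pde1c 0.00 in lungs. The heart minus lungs difference had an unadjusted p under 0.05 for 25 of the 28, against 6.9% of all kept probe sets. The 28 were chosen by their heart difference, so these counts are a description.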

How the data were processed

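Total RNA from each sample was extracted with Trizol and hybridised as labelled cRNA to Affymetrix mouse arrays, per the labels' protocols. The values used are the log2 signals of the deposited series table, made by the authors with Partek 6.4 per the submitters' processing notes. For background correction, summary and normalization the method was not given in the sources used here. Probe sets were named from the platform annotation: of 45037 without controls, 28898 had 1 gene, 551 several and 15588 none, and 28689 matched a current RefSeq symbol.

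limma 3.58.1 in R 4.3.3 fitted 1 mean for each of 6 groups over 16 arrays, so that lungs and fibroblasts share in the spread. Moderation used all 45037 probe sets, and p-values were adjusted by Benjamini-Hochberg over the 22098 kept. No 2 heart arrays held identical values (smallest mean absolute difference 0.25 log2). Genes named are all called probe sets, all Myo1c probe sets, all atrial and heart muscle markers, the 4 members of other lists with the smallest p and any without overlap and over 1 log2, and the 15 extremes of 3 rankings. Members and lists were chosen with earlier results of these data known. Promoter windows are from RefSeq. The fit was tested on simulated data. Alternatives covered scaling, array weights, covariates, filters, moderation and each heart left out. The number of arrays limits the precision.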

Additional observations from a re-analysis of the deposited data

Results flagged for a closer look

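The nonspecific control probe sets with 5 to 10 G and C bases of 25 averaged 2.76 log2 in KO heart 1602, against 2.41, 2.37 and 2.35 in WT hearts, a signal above the WT hearts in probes that the comparison does not use.

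Of 24 poly-A control probe sets, 13 had all KO hearts above all WT hearts. Their means were 7.22, 7.35 and 7.47 log2 in KO hearts, against 7.17, 6.85 and 6.80 in WT hearts.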

How the results depend on the processing

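The 28 calls of limma became 3 with the upper quartile as a covariate, 3 with the atrial covariate, 2 in a fit of the heart arrays alone, 10 with no filter, 0 with a filter at the upper quartile (1394 with an unadjusted p under 0.05) and 14 with moderation over kept probe sets only, an alternative chosen after seeing the data. Leaving out 1 heart at a time gave 3 to 1054 calls, and 0 to 2 for the heart minus lungs difference (2 without WT heart 1624). In each alternative every one of the 28 that was tested kept its sign and an unadjusted p under 0.05. Centring each array on its median moved the median of all kept probe sets to 0.12, the Myo1c mean to -0.47 and the mitochondrial ribosome list to 0.44. Quantile normalization gave -0.54 for Myo1c. With the atrial covariate the atrial list was at 0.00 and the matrix list at -0.26. With 1 heart left out, the median of all kept probe sets ran from -0.23 to -0.02, Myo1c from -0.81 to -0.69, the atrial list from -2.26 to -1.12, the mitochondrial ribosome from 0.11 to 0.18 and matrix from -0.96 to -0.56. Apart from the settings whose construction removes samples or genes, the cause was not tested. No paired analysis was possible because KO and WT hearts share no mouse number. With the mouse as a random replicate block over heart and lungs, 28 probe sets were called, the same 28.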
